A study of Rattus norvegicus with 6 samples.

Results

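The genes described here are 36 type I interferon response genes, taken by their listed symbols and matched to the gene tables of the files. All 36 were found among 25399 listed genes, and every one had UMIs (unique molecular identifiers, each standing for 1 captured RNA molecule) in kept cells of both groups. By role they comprised 4 sensors of foreign or misplaced nucleic acid (Ddx58, Ifih1, Dhx58, Zbp1), 4 transcription factors (Irf1, Irf7, Irf9, Stat2) and 14 antiviral effectors (Ifit1, Ifit2, Ifit3, Mx1, Mx2, Oas1a, Oasl, Oasl2, Rsad2, Cmpk2, Isg20, Bst2, Eif2ak2, Adar). The remainder were 3 genes of ISG15 conjugation and ubiquitin ligation (Isg15, Usp18, Trim25), 3 genes of the PARP and DTX3L group (Parp9, Parp14, Dtx3l), 2 chemokines (Cxcl10, Cxcl11) and 6 other induced genes (Ifi27, Ifi35, Ifi44, Ifi47, Xaf1, Rtp4).

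Type I interferons are secreted when a cell senses viral or misplaced self nucleic acid. They bind the IFNAR1 and IFNAR2 receptor, whose kinases JAK1 and TYK2 phosphorylate STAT2, which acts with IRF9 in the factor ISGF3 that binds the interferon-stimulated response element in the promoters of its target genes. In the brain, microglia, macrophages, endothelial cells and astrocytes are all known to respond to these cytokines, and several of the same genes also respond to interferon gamma.

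The libraries came from rat brain after pontine infarction (a stroke of the pons, in the brainstem) or sham operation, and were prepared as single cells with a droplet 3′ RNA kit. All 6 libraries are labelled as Sprague Dawley, brain and postnatal day 21, with 3 libraries in the infarction group and 3 in the sham group. The labels do not say whether that day is the age at operation or at sampling, and the time after infarction is not given in the sources used here. The treatment note speaks of 3 operated rats, but no label ties a library to an animal, so p-values measure only the spread between these libraries.

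After filters 37853 of 44011 barcodes were kept, 5873 to 7255 per library, with 56416475 to 69924334 UMIs per library as deposited and a median of 7286.5 to 9562 UMIs per kept cell. Cells were grouped into 31 clusters without using the interferon genes, and clusters were called "-like" from marker genes. The mixes of cells differed: neutrophil-like cells numbered 2050, 1403 and 973 in the infarction libraries and 13, 44 and 12 in the sham libraries, and 3536 infiltrating macrophage-like cells were all from infarction libraries. Smooth muscle-like cells numbered 0, 0 and 1 in the infarction libraries and 2776, 2257 and 2345 in the sham libraries, and pericyte-like cells 4, 6 and 4 in the infarction libraries and 1503, 1426 and 1074 in the sham libraries. Of 37676 distinct kept barcode sequences, 177 occurred in more than 1 library.

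As a share of UMIs, neutrophil-like cells had the highest 36-gene sum among classes with at least 20 cells in each infarction library. Their sum was 10132, 6595 and 8811 CPM (UMIs per 1000000 UMIs of the class in that library) in the infarction libraries. Endothelial-like cells followed with 3411, 3928 and 4171 CPM, and border macrophage-like cells, the resident macrophages of vessels and meninges, with 3992, 2152 and 3495. T or NK-like cells held 2389.5, 1604 and 3374, infiltrating macrophage-like cells 889, 862 and 2099 and microglia-like cells 1220.3, 1037 and 1631 CPM. In sham libraries, where neutrophil-like cells were fewer than 20 in libraries 1 and 3, the same sum was 4522, 4321 and 3085 CPM in endothelial-like cells, 2318, 1968 and 2150.0 in border macrophage-like cells, 1493, 1247 and 1718 in T or NK-like cells and 1649, 1069 and 1127 in microglia-like cells. The infarction libraries of neutrophil-like cells lay above those of every other class of that size in this share. The ranges of endothelial-like and border macrophage-like cells overlapped, as did those of border macrophage-like and T or NK-like cells. Such a share is not an amount per cell. The median neutrophil-like cell held 2202, 1613 and 1896 UMIs in the infarction libraries. In border macrophage-like cells this median was 10903, 9225 and 8717, and in endothelial-like cells 4078.5, 3931 and 3680.5. One gene, Ifi27, a small mitochondrial protein gene, made up 34.6% of the members' UMIs in infarction libraries; Ifit3 made up 13.7% and Isg15 8.43%. Without Ifi27 the infarction sums were 3012, 1319.8 and 2119 CPM in border macrophage-like cells and 1721, 1805 and 1857 in endothelial-like cells, so the order of their means turned, and the ranges still overlapped.

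**Figure D1:**
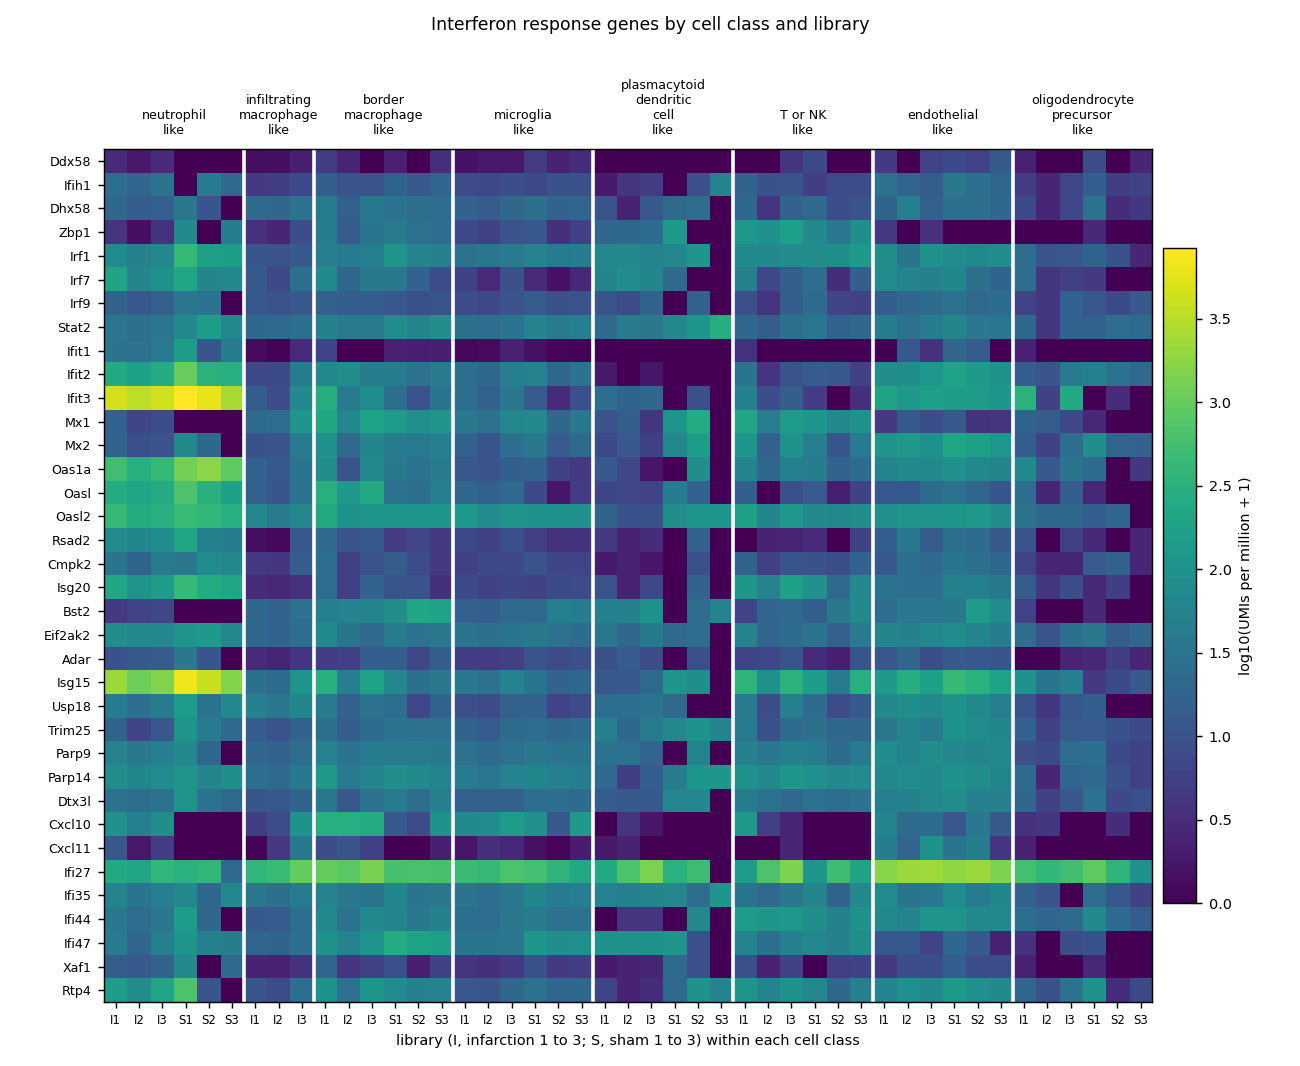
Level of each of the 36 genes (rows, by role) in each library (columns, infarction 1 to 3 left of sham 1 to 3) of 8 cell classes (infarction alone for infiltrating macrophage-like cells), as the log10 of CPM plus 1 on a colour scale. The brightest rows are Ifit3 and Isg15 in neutrophil-like cells and Ifi27 in endothelial-like cells, in infarction and sham libraries alike.

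Ordered by class, 15 of the 36 genes had their highest infarction mean in neutrophil-like cells, 11 in endothelial-like cells, 4 in border macrophage-like cells, 3 in T or NK-like cells and 3 in plasmacytoid dendritic cell-like cells. In sham libraries, where neutrophil-like cells were too few to enter, 24 of the 36 were highest in endothelial-like cells. The ranges over libraries of the highest and next class were apart for 7 of the 15 neutrophil genes and for 4 of the 11 endothelial genes, so for most of these genes the neighbours in this order overlapped. The highest class was not counted over all genes, so these counts cannot be called particular to the members.

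Within the infarction libraries 11 of 14 antiviral effectors, 4 of 4 transcription factors, 3 of 4 sensors, 3 of 3 PARP and DTX3L genes and 5 of 6 other induced genes were higher in neutrophil-like than in microglia-like cells. Ifit3, whose product binds viral RNA together with its IFIT partners, stood at 4731, 3441 and 4366 CPM in neutrophil-like cells, against 24.2, 15.3 and 36.7 in microglia-like cells of the same infarction libraries. Isg15, which encodes a ubiquitin-like modifier, stood at 2188, 1159 and 1488 CPM in neutrophil-like cells, against 36.8, 29.0 and 53.5 in microglia-like cells. For both genes each neutrophil sum lay above every microglia sum. Ifit3 was 8.24 ± 0.24 (SE) higher on the log2 scale and Isg15 6.15 ± 0.24 higher (edgeR adjusted p = 1.23e-19 for Ifit3, 1.43e-12 for Isg15, quasi-likelihood test with library as a block and Benjamini-Hochberg adjustment over all genes tested, n = 3 libraries). Oas1a, an enzyme that makes the oligoadenylates activating RNase L, was higher by 6.01 ± 0.19, the exonuclease gene Isg20 by 5.57 ± 0.18 and Ifit1 by 6.77 ± 0.31. In all 28 of the 36 genes passed as higher and 2 as lower in neutrophil-like cells, where 34.2% of all genes tested were higher and 42.8% lower, and the median log2 difference of the members was 2.05 against −0.27 over all genes. The lower genes were the GTPase gene Mx1 (−1.14 ± 0.37) and Bst2 (−1.001 ± 0.26), which encodes the virus tether tetherin. Ifit3 also ranked among the 10 leading genes of both neutrophil-like clusters, although clustering did not use it. Ifit, Mx and Oas genes have close copies, and how reads shared between copies were counted is not given in the sources used here.

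Border macrophage-like cells showed a broad excess over microglia-like cells within the infarction libraries, with 28 of 34 tested members higher and 0 lower by edgeR (0 lower also at an unadjusted p under 0.05), where 13% of all genes were higher and 12.6% lower. Their median log2 difference was 1.42, against −0.04 over all genes. Oasl, a relative of the OAS enzymes that enhances RIG-I signalling in humans, stood at 301, 129.99 and 253 CPM in border macrophage-like cells, against 18.8, 15.4 and 20.7 in microglia-like cells (3.74 ± 0.15, edgeR adjusted p = 4.86e-31). Irf7, the transcription factor that amplifies interferon production, stood at 75.6, 19.9 and 37.5 in border macrophage-like cells, against 4.98, 2.07 and 8.29 in microglia-like cells (3.34 ± 0.33, edgeR adjusted p = 1.08e-12). Rtp4, a chaperone gene induced by interferon, Zbp1, a sensor of Z-form nucleic acid, and Mx1 were also higher, by 2.76 ± 0.23, 2.26 ± 0.34 and 2.03 ± 0.19. Without infarction library 1 the count of higher members was 16.

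Endothelial-like cells exceeded microglia-like cells for 20 of 36 members and lay below them for 3 within the infarction libraries (20.8% of all genes higher, 24.6% lower; median log2 difference 1.20 against −0.06). The CXCR3 ligand gene Cxcl11 was higher by 4.73 ± 0.47, Irf7 by 3.38 ± 0.34, Usp18, whose product removes ISG15 and dampens receptor signalling, by 2.67 ± 0.28, Ifit3 by 2.41 ± 0.20 and Mx2 by 2.40 ± 0.23. In contrast Mx1, Ifi47 (an interferon-inducible GTPase) and Cxcl10 were lower, with log2 differences of −2.85 ± 0.43, −2.21 ± 0.44 and −1.85 ± 0.26. Mx1 stood at 3.48, 10.98 and 7.88 CPM in endothelial-like cells, against 36.6, 27.9 and 64.3 in microglia-like cells, and Mx2 at 108, 128 and 91.9 in endothelial-like cells, against 16.9, 10.1 and 26.0 in microglia-like cells. The members of this close pair thus lay on opposite sides of the microglial level in endothelial-like cells.

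In T or NK-like cells 14 of 33 tested members were higher and 2 lower than in microglia-like cells (20.7% of all genes higher, 27.4% lower; median 0.83 against −0.14). Isg20 was higher by 4.40 ± 0.25, Zbp1 by 4.35 ± 0.22, Rtp4 by 2.85 ± 0.23, Isg15 by 2.74 ± 0.23 and Ifi44 by 2.29 ± 0.20. Rsad2, the gene of viperin, and Oasl were lower, with log2 differences of −2.24 ± 0.89 and −1.43 ± 0.48. Rsad2 stood at 0, 1.48 and 1.59 CPM in T or NK-like cells, near the low end of detection. The call of Rsad2 was lost without any one of the 3 libraries, and that of Oasl without infarction library 2.

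Infiltrating macrophage-like cells lay near microglia-like cells, with 8 members higher and 7 lower of 36 (33.4% of all genes higher, 35.3% lower; median 0.12 against −0.03). Usp18 stood at 50.7, 35.96 and 62.8 CPM in infiltrating macrophage-like cells, against 8.09, 6.96 and 14.9 in microglia-like cells (2.73 ± 0.11, edgeR adjusted p = 1.33e-09). Irf1 stood at 9.71, 9.09 and 12.01 in infiltrating macrophage-like cells, against 28.2, 33.6 and 39.2 in microglia-like cells (−1.34 ± 0.10, edgeR adjusted p = 2.47e-07). Each of these genes separated the classes in all 3 libraries, in opposite directions. The count of lower members was 3 without infarction library 1 or 2 and 13 without infarction library 3.

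In plasmacytoid dendritic cell-like cells 9 of 33 members were higher and 15 lower than in microglia-like cells (28.7% of all genes higher, 35.5% lower; median −0.44 against −0.10). Irf7 was higher by 3.62 ± 0.21, Bst2 by 1.91 ± 0.17 and Ifi47 by 1.46 ± 0.14. In contrast Cxcl10, Ifit2 and Ifi44 were lower, with log2 differences of −6.84 ± 0.33, −5.73 ± 0.47 and −4.07 ± 0.38. All of these lower genes were near the low end of detection in the class, so the sizes depend on the fit. Cxcl10 stood at 0, 2.91 and 0.758 CPM, Ifit2 at 0.919, 0 and 0.758 and Ifi44 at 0, 2.91 and 3.03. Oligodendrocyte precursor-like cells held 17 lower members of 33, and 0 higher by edgeR (1 higher at an unadjusted p under 0.05), where 19.1% of all genes were higher and 21% lower (median −1.07 against −0.06). Cxcl10, Ifi47 and Oasl2 led the lower members there, with log2 differences of −6.02 ± 0.48, −3.67 ± 0.49 and −2.60 ± 0.23, and 7 were lower without infarction library 2. Cxcl10 stood at 2.65, 3.31 and 0 CPM in these precursor-like cells, near the low end of detection.

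**Figure D2:**
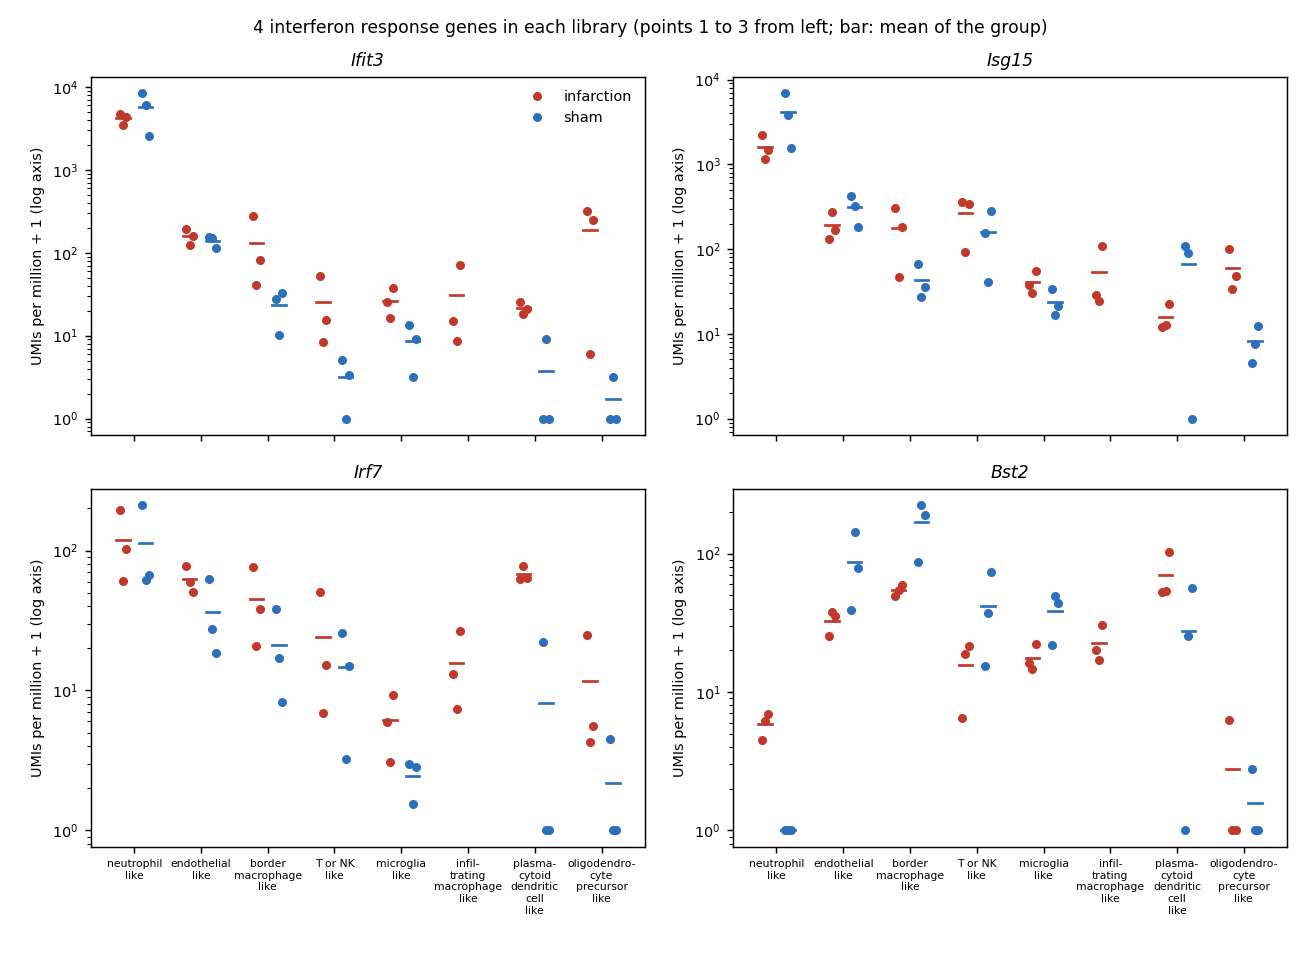
CPM plus 1 (log axis) of Ifit3, Isg15, Irf7 and Bst2 in 8 cell classes, 1 point per library, infarction in red left of sham in blue, with a bar at the mean of the group. Ifit3 and Isg15 stand highest in neutrophil-like cells of both groups, and Bst2 stands lower in infarction than in sham in border macrophage-like cells.

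Over all kept cells of a library, 28 of the 36 genes were higher after infarction and 0 were lower by edgeR's quasi-likelihood test with Benjamini-Hochberg adjustment (0 lower also at an unadjusted p under 0.05 and by DESeq2). Of all genes tested 33.2% were higher and 38.1% lower, and the median log2 fold change was 1.20 for the members against −0.13 over all genes. Among the roles, 3 of 4 sensors, 4 of 4 transcription factors, 9 of 14 antiviral effectors, 3 of 3 ISG15 and ubiquitin genes, 3 of 3 PARP and DTX3L genes, 2 of 2 chemokines and 4 of 6 other induced genes were higher. In such whole-suspension sums more cells of a type and more RNA per cell cannot be told apart.

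Ifit3 stood at 395, 143 and 193 CPM over all infarction cells, against 10.0, 16.3 and 6.85 over all sham cells (4.94 ± 0.57, edgeR adjusted p = 0.000482). The lowest infarction library was well above the highest sham library. Oasl stood at 42.1, 19.6 and 33.1 over all infarction cells, against 3.94, 2.56 and 2.88 over all sham cells (3.81 ± 0.36, edgeR adjusted p = 0.000209). Irf7 stood at 35.97, 9.63 and 24.3 in infarction, against 4.02, 1.956 and 1.57 in sham (3.68 ± 0.63, edgeR adjusted p = 0.00251). Usp18 stood at 30.6, 23.0 and 44.8 in infarction, against 8.001, 4.34 and 4.08 in sham (3.04 ± 0.38, edgeR adjusted p = 0.000634). For these genes every infarction library lay above every sham library. Mx1 had 37.5, 32.7 and 88.6 CPM in infarction, against 10.2, 5.71 and 12.7 in sham (2.93 ± 0.49, edgeR adjusted p = 0.00222), and Isg15 had 216, 79.8 and 153 in infarction, against 104.53, 59.1 and 40.2 in sham (1.61 ± 0.50, edgeR adjusted p = 0.0269). Ddx58, the gene of the RNA sensor RIG-I, had 0.639, 0.530 and 1.15 in infarction, against 1.37, 0.843 and 1.49 in sham (−0.22 ± 0.39, edgeR adjusted p = 0.635), and Ifi44 had 19.0, 17.2 and 27.3 in infarction, against 31.8, 30.5 and 23.0 in sham (0.03 ± 0.21, edgeR adjusted p = 0.893); for both genes the groups overlapped and no difference passed. The call of Isg15 was lost without infarction library 1 or 3 or sham library 2 or 3, and also without neutrophil-like cells (0.53).

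The size of this count moved with the mix of cells and with the scaling. Neutrophil-like cells held 34.9, 19.3 and 16.4% of kept cells and 7.57, 3.73 and 2.96% of UMIs in the infarction libraries, yet 41.5, 20.1 and 11.7% of the members' UMIs. They held 90.6, 89.5 and 66.9% of all Ifit3 UMIs and 76.7, 54.2 and 28.8% of all Isg15 UMIs there. In sham libraries, neutrophil-like cells held 0.220, 0.695 and 0.183% of kept cells but 45.9, 58.8 and 33.0% of Ifit3 UMIs. Most Ifit3 UMIs of each infarction library thus lay in neutrophil-like cells. Infiltrating macrophage-like cells held 10.2, 21.1 and 40.2% of the members' UMIs in infarction, beside 21.1, 29.9 and 42.8% of all UMIs. They held 35.0, 46.7 and 60.0% of Usp18 UMIs there, and microglia-like cells 35.6, 42.5 and 19.5% of Cxcl10 UMIs. Unnamed clusters held a further part. The one led by Fcnb and Vcan held 17990, 10066 and 18398 UMIs of the members in infarction libraries 1 to 3. The microglia-like cluster led by Ccl4 held 11152, 8110 and 9479 there. Smooth muscle-like cells, which the infarction libraries all but lacked, held 26.7, 21.6 and 26.3% of the members' UMIs in sham. Their share of all UMIs there was larger, at 51.8, 38.7 and 50.1%.

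Leaving out neutrophil-like cells, 26 members were higher and 0 lower (33.2% of all genes higher, 38.4% lower), with a median of 0.93. Leaving out the named classes nearly absent from one group (neutrophil, infiltrating macrophage, smooth muscle, pericyte, choroid plexus and neuron-like cells), 6 were higher and 1 lower (31.4% of all genes higher, 33.2% lower), with a median of 0.22. Unnamed clusters with few sham cells stayed in this sum: one led by Fcnb and Vcan had 1317, 1194 and 904 cells in the infarction libraries and 2, 8 and 2 in the sham libraries, one led by Mmp12 had 254, 501 and 324 in infarction and 2, 1 and 2 in sham, and one led by Klrb1a had 357, 585 and 387 in infarction and 17, 27 and 14 in sham. The 6 were Ifit3, Usp18, Zbp1, Dhx58, Mx1 and Oasl, and the lower gene was Ddx58. Scaled to total UMIs in place of TMM (trimmed mean of M-values), which moved the median of all genes by 0.47, 15 members were higher and 0 lower. All 3 of these settings were chosen after the data were seen.

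**Figure D3:**
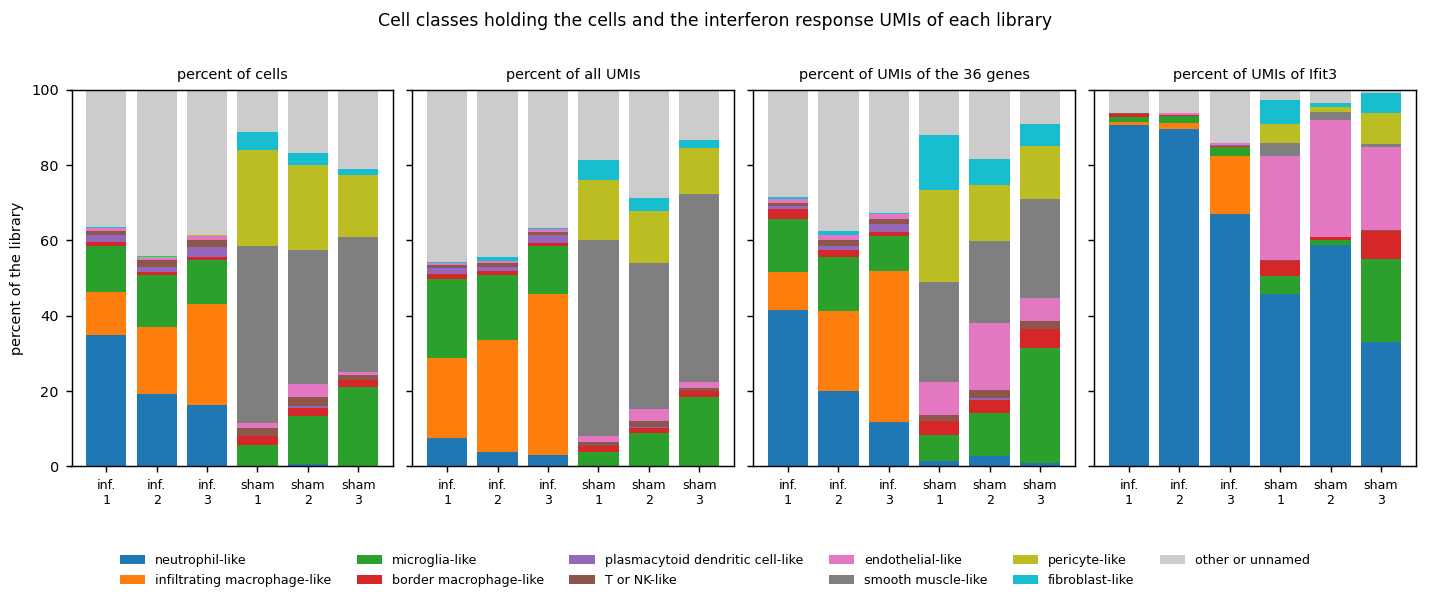
Percent of cells, of all UMIs, of the UMIs of the 36 genes and of Ifit3 UMIs (4 panels) that each cell class held in each library, as stacked bars, infarction libraries left of sham libraries. Neutrophil-like cells fill a small part of the UMI bars of infarction libraries and most of their Ifit3 bars, and smooth muscle-like and pericyte-like cells appear in the sham bars.

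Within microglia-like cells, the largest resident immune class of both groups (723, 1010 and 690 cells in the infarction libraries and 328, 808 and 1370 in the sham libraries), the program did not move as one. Of 34 tested members 4 were higher after infarction and 8 lower, where 32% of all genes were higher and 31.3% lower, both larger than the members' shares. The median log2 fold change of the members was −0.23, against −0.02 over all genes. By role, 0 of 4 sensors were higher and 1 lower, 1 of 4 transcription factors was higher and 2 lower, 3 of 13 tested effectors were higher and 2 lower, 0 of 3 ISG15 and ubiquitin genes passed, 1 of 3 PARP and DTX3L genes was lower, and 2 of 6 other induced genes were lower.

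The 4 higher members were Oasl, Ifit3, Irf7 and Rsad2. Oasl stood at 18.8, 15.4 and 20.7 CPM in microglia-like cells of the infarction libraries, against 6.45, 0.723 and 3.96 in the sham libraries (2.48 ± 0.45, edgeR adjusted p = 0.00274). Ifit3 stood at 24.2, 15.3 and 36.7 in infarction, against 12.4, 2.17 and 8.23 in sham (1.86 ± 0.60, edgeR adjusted p = 0.0437). The groups did not overlap for either gene, and infarction library 2 was the lowest of its group for both. Irf7 stood at 4.98, 2.07 and 8.29 in infarction, against 1.99, 0.542 and 1.82 in sham (1.798 ± 0.63, edgeR adjusted p = 0.0379), and Rsad2 at 6.07, 4.98 and 8.03 in infarction, against 4.47, 2.71 and 2.78 in sham (1.02 ± 0.28, edgeR adjusted p = 0.00796). Both were near the low end of detection in this class, and all 3 infarction libraries lay above the sham libraries in both. Isg15 had 36.8, 29.0 and 53.5 in infarction, against 32.8, 15.9 and 20.5 in sham, and did not pass (0.84 ± 0.32, edgeR adjusted p = 0.0581), with infarction library 2 below sham library 1. The call of Ifit3 was lost without infarction library 1 or 3 or sham library 2 or 3, that of Irf7 without any one library other than infarction library 2, and that of Rsad2 without sham library 3. Of the 34, 2 were then higher without infarction library 3 or sham library 2, and 1 without sham library 3.

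The 8 lower members were Ifi47, Bst2, Adar, Stat2, Ifi35, Dtx3l, Irf1 and Ddx58. Ifi47 stood at 32.0, 32.4 and 34.0 CPM in infarction, against 109.7, 82.4 and 91.2 in sham (−1.54 ± 0.11, edgeR adjusted p = 7.95e-07). Stat2, the ISGF3 subunit, stood at 26.8, 25.5 and 30.6 in infarction, against 54.6, 40.9 and 48.2 in sham (−0.81 ± 0.12, edgeR adjusted p = 0.000201). Each infarction library lay below each sham library for both genes, and the infarction libraries differed little among themselves. Ifi35, an interferon-induced leucine zipper protein gene, stood at 30.6, 24.0 and 34.0 in infarction, against 61.5, 39.2 and 46.6 in sham (−0.73 ± 0.18, edgeR adjusted p = 0.0061). Bst2 stood at 15.1, 13.7 and 21.2 in infarction, against 20.8, 48.6 and 42.8 in sham (−1.28 ± 0.30, edgeR adjusted p = 0.00928), and here infarction library 3 reached just above sham library 1. Adar, whose enzyme edits double-stranded RNA, fell by 1.01 ± 0.20 (edgeR adjusted p = 0.00111), Dtx3l, a ubiquitin ligase partner of PARP9, by 0.69 ± 0.11 (edgeR adjusted p = 0.000357) and Irf1 by 0.48 ± 0.13 (edgeR adjusted p = 0.00902). Ifi47, Stat2, Adar and Dtx3l passed as lower in 17 of 17 alternatives.

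Of the genes that sense nucleic acid upstream of interferon, 2 of 13 tested were higher in microglia-like cells and 8 lower, where 32% of all genes were higher and 31.3% lower. Unc93b1, which carries Toll-like receptors to endosomes, stood at 121, 157 and 147 CPM in infarction, against 489, 531 and 511 in sham (−1.88 ± 0.10, edgeR adjusted p = 1.2e-07). Tmem173, the gene of STING, stood at 45.6, 52.7 and 55.2 in infarction, against 184, 163 and 153 in sham (−1.73 ± 0.10, edgeR adjusted p = 2.08e-07), and the double-stranded RNA receptor gene Tlr3 fell by 1.54 ± 0.13 (edgeR adjusted p = 1.13e-05). Cgas, the cytosolic DNA sensor gene, and Ikbke were the 2 higher ones. Of 9 receptor and signalling genes 1 was higher (Stat3, 0.73 ± 0.09) and 4 were lower. The interferon gamma receptor gene Ifngr1 stood at 334, 399 and 467 in infarction, against 1271, 1273 and 1348 in sham (−1.73 ± 0.11, edgeR adjusted p = 4.22e-07), and Jak1 fell by 0.76 ± 0.10. Neither subunit gene of the type I receptor passed. Of 7 negative regulators 4 were higher (Trex1, Socs1, Socs3 and Ptpn2) and 1 lower (Ptpn6, −0.46 ± 0.07). Among 7 tested genes that lean towards interferon gamma, Cd274, the gene of PD-L1, was higher by 3.01 ± 0.28, Icam1 was higher, and Gbp4 (−1.58 ± 0.21), Igtp (−1.03 ± 0.16) and Irgm were lower. Of 35 tested further interferon-induced genes 6 were higher and 9 lower, led by Trafd1 (−0.92 ± 0.09), Epsti1 (−0.51 ± 0.06) and Trim34 (−1.22 ± 0.17), all lower.

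The 2 groups filled different microglial clusters. In infarction 5.90% of microglia-like cells were in the cluster led by Tmem119, 74.2% in one led by Ccl4 and 19.9% in a cycling one; in sham the shares were 94.4%, 4.87% and 0.758%. Microglial markers summed to 838, 1041 and 1149 CPM in the class in infarction, against 3855, 3839.5 and 3928 in sham, and the 9 infiltrating macrophage markers to 14495, 9211 and 11594 in infarction, against 201, 291 and 252 in sham. Neutrophil markers summed to 612, 212 and 105.19 in infarction, against 70.0, 51.7 and 52.0 in sham. The median share of mitochondrial UMIs in the class was 7.24, 7.396 and 7.43% in infarction and 4.81, 5.26 and 5.30% in sham. The part of these values in the results was not tested. Scaled by S100a8 and S100a9, the neutrophil level of Ifit3 would carry over 97.4, 15.2 and 4.7 CPM in infarction libraries 1 to 3. Measured there were 24.2, 15.3 and 36.7 CPM, and only infarction library 3 was clearly above that estimate. For Irf7 the estimates were 3.97, 0.265 and 0.109 CPM, beside 4.98, 2.07 and 8.29 measured. For Oasl and Rsad2 they were 5.54 and 1.58 CPM in infarction library 1, beside 18.8 and 6.07 measured. In infarction library 1 the estimates of Ifit3 and of Isg15 (45.0 against 36.8 CPM) exceeded the measured level, which carry-over cannot do. The scaling is therefore rough, and the part of neutrophil RNA was not tested. Without the Ccl4-led cluster 1 member was higher (Isg15) and 5 lower (Adar, Stat2, Ifi47, Bst2 and Dtx3l).

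**Figure D4:**
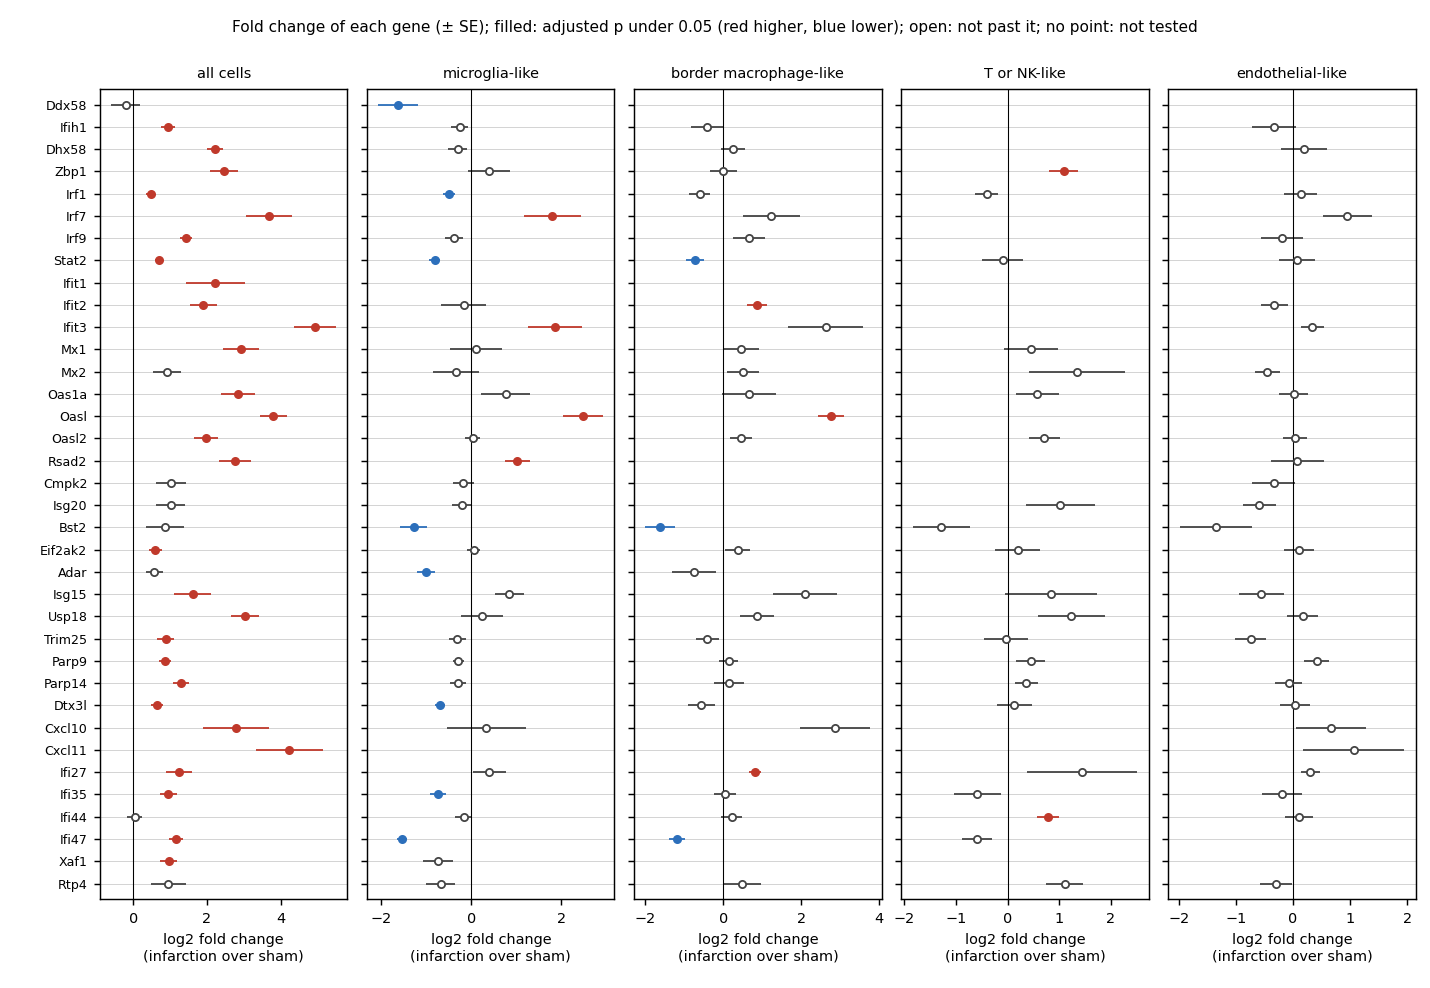
Log2 fold change, infarction over sham, of each of the 36 genes (rows, by role) over all cells and in microglia-like, border macrophage-like, T or NK-like and endothelial-like cells, with bars of 1 SE. Filled points passed the edgeR test; most are to the right over all cells, while in microglia-like cells 4 are to the right and 8 to the left.

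Promoters are shown for 6 members that passed in microglia-like cells, 4 higher and 2 lower, to set the interferon-stimulated response element beside the direction of change. RefSeq sequences of build GRCr8, from 250 bases before to 50 bases after the start of the gene, were matched by symbol for 26 of the 36 members. The core of the element, GAAA, any 2 bases and GAAA, searched on both strands with overlapping matches allowed, occurred in 15 of those 26 promoters (57.7%) and in 1312 of 33469 promoters of the same length (3.92%). It was present in 3 of 4 members higher in microglia-like cells, in 2 of 6 lower ones with a promoter and in 10 of 15 that did not pass. The members were listed as interferon response genes, so their larger share than over all promoters is no result of these data. Ifit3 lies at chr1:241527076-241527375 on the forward strand, Irf7 at chr1:205799974-205800273 on the reverse strand, Rsad2 at chr6:48788071-48788370 on the reverse strand, Oasl at chr12:47356243-47356542 on the reverse strand, Bst2 at chr16:18254918-18255217 on the reverse strand and Ifi47 at chr10:33798494-33798793 on the forward strand. Capitals mark the match, which reads as TTTC, 2 bases and TTTC where it lies on the other strand.
Ifit3: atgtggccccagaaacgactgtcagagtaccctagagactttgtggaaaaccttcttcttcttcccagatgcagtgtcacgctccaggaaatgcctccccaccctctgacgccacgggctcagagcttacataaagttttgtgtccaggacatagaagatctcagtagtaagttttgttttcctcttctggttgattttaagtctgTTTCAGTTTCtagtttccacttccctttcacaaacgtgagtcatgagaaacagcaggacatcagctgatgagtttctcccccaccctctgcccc
Irf7: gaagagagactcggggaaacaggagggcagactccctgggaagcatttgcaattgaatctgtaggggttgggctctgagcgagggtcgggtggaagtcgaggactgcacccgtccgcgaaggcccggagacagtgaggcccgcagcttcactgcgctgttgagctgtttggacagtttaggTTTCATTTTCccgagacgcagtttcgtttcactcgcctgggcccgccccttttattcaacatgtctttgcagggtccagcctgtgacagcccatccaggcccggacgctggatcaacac
Rsad2: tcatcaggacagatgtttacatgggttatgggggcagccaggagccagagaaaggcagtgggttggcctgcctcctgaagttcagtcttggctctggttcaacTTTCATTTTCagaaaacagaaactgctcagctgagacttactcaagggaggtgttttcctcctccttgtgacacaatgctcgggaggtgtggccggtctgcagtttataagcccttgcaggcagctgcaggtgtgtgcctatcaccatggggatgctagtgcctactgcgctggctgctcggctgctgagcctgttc
Oasl: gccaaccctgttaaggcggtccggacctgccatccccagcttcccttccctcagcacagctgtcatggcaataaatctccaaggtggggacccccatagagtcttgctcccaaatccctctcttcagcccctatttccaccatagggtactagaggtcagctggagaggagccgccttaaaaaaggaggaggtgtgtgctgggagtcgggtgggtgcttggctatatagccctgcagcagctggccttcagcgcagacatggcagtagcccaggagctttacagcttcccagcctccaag
Bst2: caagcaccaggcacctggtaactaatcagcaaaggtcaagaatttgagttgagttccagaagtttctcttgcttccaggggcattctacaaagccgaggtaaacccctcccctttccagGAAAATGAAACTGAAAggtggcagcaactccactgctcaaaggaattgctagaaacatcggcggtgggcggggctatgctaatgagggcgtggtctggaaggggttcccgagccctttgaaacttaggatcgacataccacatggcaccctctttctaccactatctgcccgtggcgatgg
Ifi47: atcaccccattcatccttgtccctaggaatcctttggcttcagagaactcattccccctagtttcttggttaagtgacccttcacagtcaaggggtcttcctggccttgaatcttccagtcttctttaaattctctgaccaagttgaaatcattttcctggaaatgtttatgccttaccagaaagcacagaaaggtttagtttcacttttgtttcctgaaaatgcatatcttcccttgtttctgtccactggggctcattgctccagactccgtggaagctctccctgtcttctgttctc

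Ifit3 and Irf7 held 1 match each close to the start of the gene, Rsad2 held 1 farther upstream and Bst2 held 2 that overlap, while the windows of Oasl and Ifi47 held none. A match describes letters in the window and not a bound site.

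In border macrophage-like cells (60, 59 and 45 cells in the infarction libraries and 134, 130 and 117 in the sham libraries), 3 of 29 tested members were higher and 3 lower, where 13.6% of all genes were higher and 11.6% lower. The members' median log2 fold change was 0.37, against −0.03 over all genes. Oasl stood at 301, 129.99 and 253 CPM in infarction, against 27.9, 26.5 and 48.2 in sham (2.76 ± 0.33, edgeR adjusted p = 0.000396). Ifi27 stood at 981, 832 and 1376 in infarction, against 613, 635 and 610.3 in sham (0.81 ± 0.16, edgeR adjusted p = 0.000544). Both genes separated the groups fully and passed in 15 of 15 alternatives. Ifit2, another RNA-binding IFIT gene, had 70.4, 82.6 and 44.5 in infarction, against 45.2, 27.7 and 42.1 in sham (0.87 ± 0.26, edgeR adjusted p = 0.0149), with infarction library 3 just below sham library 1.

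Lower in border macrophage-like cells were Ifi47, Bst2 and Stat2, each also lower in microglia-like cells. Ifi47 stood at 99.1, 56.6 and 108 CPM in infarction, against 258, 187 and 163 in sham (−1.18 ± 0.22, edgeR adjusted p = 0.000623), Bst2 at 48.3, 53.5 and 58.6 in infarction, against 86.5, 224 and 190.2 in sham (−1.62 ± 0.37, edgeR adjusted p = 0.0179), and Stat2 at 49.6, 39.8 and 39.9 in infarction, against 78.5, 58.9 and 85.5 in sham (−0.72 ± 0.22, edgeR adjusted p = 0.0193). No infarction library reached the sham range for any of the 3. Ifi47 passed as lower in 15 of 15 alternatives, Bst2 in 12 and Stat2 in 9.

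Several effectors were high in border macrophage-like cells of infarction library 1 and varied too much to pass. Ifit3 had 273, 39.8 and 79.7 CPM in infarction, against 26.6, 9.23 and 31.3 in sham (2.63 ± 0.96, edgeR adjusted p = 0.132). Isg15 had 301, 45.9 and 183 in infarction, against 66.5, 26.5 and 34.9 in sham (2.10 ± 0.81, edgeR adjusted p = 0.149). Irf7 had 75.6, 19.9 and 37.5 in infarction, against 37.2, 16.2 and 7.22 in sham (1.24 ± 0.72, edgeR adjusted p = 0.286). Infarction library 2 overlapped the sham libraries for Isg15 and Irf7 and lay just above them for Ifit3. Cxcl10, a chemokine for CXCR3-bearing lymphocytes, had 299, 292 and 256 in infarction, against 11.97, 6.93 and 99.9 in sham (2.87 ± 0.90, edgeR adjusted p = 0.0926); the infarction libraries lay close together and sham library 3 stood apart in its group. Without infarction library 2, 9 members were higher (Isg20, Isg15, Ifi27, Mx1, Mx2, Rtp4, Oas1a, Oasl and Oasl2). Infiltrating macrophage markers summed to 7982, 3695 and 2689 CPM in the class in infarction, against 572, 599 and 1012 in sham, and neutrophil markers to 471, 151 and 220.4 in infarction, against 15.96, 27.7 and 32.5 in sham; their part was not tested.

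Elsewhere in the pathway of border macrophage-like cells, where 13.6% of all genes were higher and 11.6% lower, 0 of 8 tested sensing genes were higher and 4 lower, among them Unc93b1 (−0.69 ± 0.15), Tlr3 (−1.20 ± 0.26) and Irf3 (−1.17 ± 0.27). Ifngr1 (−0.71 ± 0.15) and Tyk2 (−1.59 ± 0.36) were lower among 9 receptor and signalling genes. Of 6 genes that lean towards interferon gamma 3 were higher: the adhesion gene Icam1 (2.64 ± 0.19) and the guanylate-binding protein genes Gbp5 (2.63 ± 0.30) and Gbp2 (0.73 ± 0.26). The negative regulators Tnfaip3 (2.35 ± 0.40) and Ptpn2 (1.11 ± 0.26) were higher too. Of 28 further interferon-induced genes 0 were higher and 3 lower (Slfn5, Trafd1 and Uba7).

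T or NK-like cells (66, 121 and 99 in the infarction libraries and 117, 145 and 81 in the sham libraries) had 2 of 21 tested members higher, where 4.83% of all genes were higher and 2.69% lower. By edgeR 0 were lower, with 1 lower at an unadjusted p under 0.05 and 0 by DESeq2; the members' median was 0.45, against −0.01 over all genes. Zbp1 stood at 121, 96.3 and 163 CPM in infarction, against 72.6, 33.9 and 89.0 in sham (1.08 ± 0.29, edgeR adjusted p = 0.0354). Ifi44 stood at 139.9, 120.0 and 124 in infarction, against 87.1, 51.9 and 98.4 in sham (0.78 ± 0.22, edgeR adjusted p = 0.0338). The infarction libraries lay above the sham libraries in both, by a small margin. Both calls were lost without infarction library 1 or sham library 2, that of Zbp1 also without infarction library 3 or sham library 1, and that of Ifi44 also without infarction library 2. Isg15 had 354, 91.9 and 341 in infarction, against 153, 39.5 and 284 in sham (0.83 ± 0.89, edgeR adjusted p = 0.684), and library 2 of each group was its lowest. Ifit3 had 52.1, 7.41 and 14.3 in infarction, against 4.15, 0 and 2.34 in sham, Irf7 had 49.4, 5.93 and 14.3 in infarction, against 24.9, 2.26 and 14.1 in sham, and Bst2 had 5.49, 17.8 and 20.6 in infarction, against 14.5, 36.1 and 72.6 in sham. Without infarction library 2, 4 members were higher. Of Ifit3, Irf7 and Bst2, Bst2 alone was tested (−1.28 ± 0.55, edgeR adjusted p = 0.216). By S100a8 and S100a9, neutrophil RNA would carry over 28.0, 0.572 and 0.428 CPM of Ifit3 in infarction libraries 1 to 3. Its part was not tested. Among the other lists Ifngr1 was higher (1.72 ± 0.24, edgeR adjusted p = 0.000711) as 1 of 8 receptor and signalling genes, as was Ptpn2 (1.18 ± 0.27), and 3 of 23 further induced genes were higher (Casp4, Psmb8 and Epsti1) and 1 lower. Infiltrating macrophage markers summed to 727, 452 and 398 CPM in the class in infarction, against 41.5, 53.1 and 30.5 in sham, and the median share of mitochondrial UMIs was 6.90, 9.29 and 8.31% in infarction and 4.75, 5.08 and 5.76% in sham; their part was not tested.

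In endothelial-like cells (42, 53 and 76 in the infarction libraries and 81, 216 and 55 in the sham libraries), which had the highest sum in sham among classes with at least 20 cells in each sham library, 0 of 28 tested members were higher and 0 lower by edgeR. At an unadjusted p under 0.05 there were 1 higher and 1 lower, and DESeq2 called 0 and 0. Of all genes tested 5.91% were higher and 6.18% lower, and the median was 0.04 for the members against 0.00 over all genes. Ifit3 had 192, 124 and 160.2 CPM in infarction, against 154, 149 and 113 in sham (0.34 ± 0.20, edgeR adjusted p = 0.3). Isg15 had 129, 275 and 168 in infarction, against 427, 325 and 179.9 in sham (−0.55 ± 0.39, edgeR adjusted p = 0.435), Irf7 had 76.6, 58.6 and 49.9 in infarction, against 61.7, 26.6 and 17.6 in sham (0.95 ± 0.42, edgeR adjusted p = 0.177) and Bst2 had 24.4, 36.6 and 34.1 in infarction, against 37.9, 142 and 77.5 in sham (−1.35 ± 0.64, edgeR adjusted p = 0.249). Groups overlapped for Ifit3, Isg15 and Irf7, while the infarction values of Bst2 lay below those of sham. Among the other lists Unc93b1 (1.78 ± 0.33) and Ifitm3 (0.89 ± 0.21) were higher and Apol3 (−0.87 ± 0.21) and Gbp7 (−2.21 ± 0.59) lower. The median share of mitochondrial UMIs in the class was 11.8% to 14.3% over the infarction libraries and 6.8% to 8.4% over the sham libraries. Infiltrating macrophage markers summed to 2606, 6373 and 1859.6 CPM in the class in infarction, against 76.8, 180.1 and 35.1 in sham, and neutrophil markers to 1101, 908 and 381 in infarction, against 32.5, 63.9 and 29.3 in sham. By S100a8 and S100a9, neutrophil RNA would carry over 4.44, 60.3 and 9.22 CPM of Ifit3 in infarction libraries 1 to 3. The part of these shares, markers and estimates was not tested.

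Oligodendrocyte precursor-like cells (57, 46 and 75 in the infarction libraries and 91, 65 and 77 in the sham libraries) had 11 members past the filter on low counts, of which 1 was higher and 0 lower by edgeR (0 lower also at an unadjusted p under 0.05 and by DESeq2). Of all genes tested 14.1% were higher and 13.7% lower, and the median was 0.07 for the members against −0.12. Isg15 stood at 98.1, 33.1 and 47.5 CPM in infarction, against 3.51, 6.66 and 11.5 in sham (3.27 ± 0.56, edgeR adjusted p = 0.00325). All infarction libraries lay above all sham libraries. Ifit3, which was not tested, had 318, 4.96 and 245 in infarction, against 0, 2.22 and 0 in sham. Scaled by S100a8 and S100a9, neutrophil RNA would carry over 104.9, 0.215 and 49.0 CPM of Isg15 in infarction libraries 1 to 3. For Ifit3 it would carry over 227, 0.638 and 144 CPM. For Isg15 infarction library 2 alone was above that estimate. In infarction libraries 1 and 3 the Isg15 estimate exceeded the measured level, so the scaling is rough. The precursor markers summed to 1558, 1361 and 2119 in infarction, against 8977, 8224 and 6651 in sham. With the library numbers as a block, 3 members were higher (Ifit3, Isg15 and Oas1a), but no label pairs the libraries.

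Classes with 10 to 19 cells in some library, a setting chosen after the data were seen, gave further values. Neutrophil-like cells had 1 of 31 tested members higher and 3 lower after infarction (14.1% of all genes higher, 6.99% lower; median −0.14 against 0.38). Oas1a had 533, 298 and 415 CPM in infarction, against 1232, 1765 and 880.3 in sham (−1.40 ± 0.31, edgeR adjusted p = 0.00043), Irf1 had 80.4, 49.98 and 64.8 in infarction, against 422, 171 and 154 in sham (−1.47 ± 0.36, edgeR adjusted p = 0.00147) and Stat2 had 33.1, 27.1 and 33.5 in infarction, against 70.4, 151 and 66.0 in sham (−1.59 ± 0.44, edgeR adjusted p = 0.00564). The groups did not overlap for these 3 genes. Cxcl10 had 96.8, 47.8 and 85.3 in infarction and 0 UMIs in each sham library. The sham sums of the class held only 28409, 99169 and 45440 UMIs, so a count of 0 there is a weak limit. Ifit3 had 4731, 3441 and 4366 in infarction, against 8378, 6081 and 2531 in sham, and Isg15 had 2188, 1159 and 1488 in infarction, against 6899, 3852 and 1540.5 in sham, so high levels of both were already present in the 69 neutrophil-like cells of the sham libraries. All 69 fell in the S100a9-led cluster, which held 29.3% of neutrophil-like cells in infarction, the other 70.7% being in a cluster led by G0s2. The neutrophil markers themselves summed to 49514, 53582 and 58205 CPM in the class in infarction, against 271534, 155381 and 351673 in sham, and infiltrating macrophage markers to 7031, 7645 and 7153 in infarction, against 809.6, 1149.6 and 968 in sham; their part was not tested. Fibroblast-like cells had 2 of 21 members higher (Cxcl10, 3.60 ± 0.79, and Trim25, 1.41 ± 0.28) and 1 lower (Ifit2, −1.82 ± 0.47), where 10.9% of all genes were higher and 13.1% lower. In ependymal-like cells only 2 members were tested and 0 passed (1 higher at an unadjusted p under 0.05; 0.48% of all genes higher, 0.757% lower).

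Whether the effect of infarction itself differed between a class and microglia-like cells was tested as an interaction. Against microglia-like cells the effect was higher for 6 of 32 members in T or NK-like cells (6.3% of all genes higher, 9.81% lower), for 2 of 34 in border macrophage-like cells (6.42% and 7.39%), for 3 of 36 in endothelial-like cells, with 1 lower (11% and 7.72%), and for 2 of 32 in oligodendrocyte precursor-like cells (5.93% and 1.61%), of which Mx1 had 25 UMIs over the infarction libraries and 1 over the sham libraries of that class. Rtp4 was among them in both T or NK-like and border macrophage-like cells. Outside T or NK-like cells the counts of higher effects lay near or below the share over all genes. The count fell to 3 in T or NK-like cells without sham library 2, was 6 in border macrophage-like cells without infarction library 2 or 3, and was 0 without infarction library 1 or sham library 3 in endothelial-like and in oligodendrocyte precursor-like cells. By edgeR 0 were lower in the other 3 classes, with 1 lower in T or NK-like cells at an unadjusted p under 0.05 and 0 in the others.

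Many members ordered the infarction libraries alike in several classes. Infarction library 2 had the lowest value of the 3 for 34 of 36 genes over all cells, 34 of 36 in neutrophil-like cells, 29 of 36 in microglia-like cells, 27 of 34 in border macrophage-like cells and 26 of 31 in T or NK-like cells, counting genes with at least 10 UMIs. In endothelial-like cells it was lowest for 10 of 30. In infiltrating macrophage-like cells infarction library 3 was highest for 35 of 36 genes. There Ifit3 stood at 14.0, 7.53 and 69.5 CPM in infarction libraries 1 to 3, Isg15 at 27.6, 23.3 and 107, Cxcl10 at 4.43, 7.04 and 103, Mx1 at 21.4, 24.6 and 108 and Ifi27 at 388, 448 and 975. Libraries 1 and 2 lay close together for each of these 5 genes and library 3 stood apart. These orders rest on plain CPM. The same counts over all genes were not made, so the orders cannot be called particular to the members. The median mitochondrial share in neutrophil-like cells was 1.29, 5.65 and 3.19% in infarction libraries 1 to 3, and its part was not tested.

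The spread over single cells was compared after thinning each cell to 2000 UMIs, and a cell with at least 10 UMIs of the 36 genes was counted as high. In neutrophil-like cells 59.5, 34.0 and 48.9% of cells were high in the infarction libraries (of 1314, 262 and 409 cells, with 736, 1141 and 564 shallower cells left out), against 87.5, 73.9 and 45.5% in sham (of 8, 23 and 11 cells). In border macrophage-like cells the shares were 32.2, 10.9 and 26.8% in infarction and 12.7, 8.94 and 4.55% in sham, and in T or NK-like cells 12.1, 2.61 and 19.6% in infarction and 3.03, 0.714 and 5.48% in sham. In both of these classes infarction libraries 1 and 3 lay above all sham libraries and infarction library 2 among them. Endothelial-like cells had 33.3, 48.6 and 49.1% in infarction and 46.3, 39.7 and 28.9% in sham, and the groups overlapped. Microglia-like cells had 1.58, 1.72 and 4.15% in infarction and 2.67, 0.513 and 1.08% in sham, and infiltrating macrophage-like cells 0.919, 0.891 and 8.13% in infarction. The median microglia-like cell held 1 to 3 thinned UMIs of the 36 genes over the 6 libraries and the highest held 28 to 117. Without thinning the shares follow depth, with 70.5, 40.2 and 59.1% of microglia-like cells in infarction and 37.5, 25 and 19.1% in sham, and 59.9, 32.5 and 44.8% of neutrophil-like cells in infarction and 92.3, 77.3 and 50% in sham; for the border macrophage-like class they were 93.3, 72.9 and 80.0% and 61.2, 55.4 and 55.6%, for the T or NK-like class 40.9, 34.7 and 58.6% and 18.8, 25.5 and 27.2%, and for the endothelial-like class 54.8, 60.4 and 59.2% and 80.2, 84.7 and 78.2%, infarction first in each pair.

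**Figure D5:**
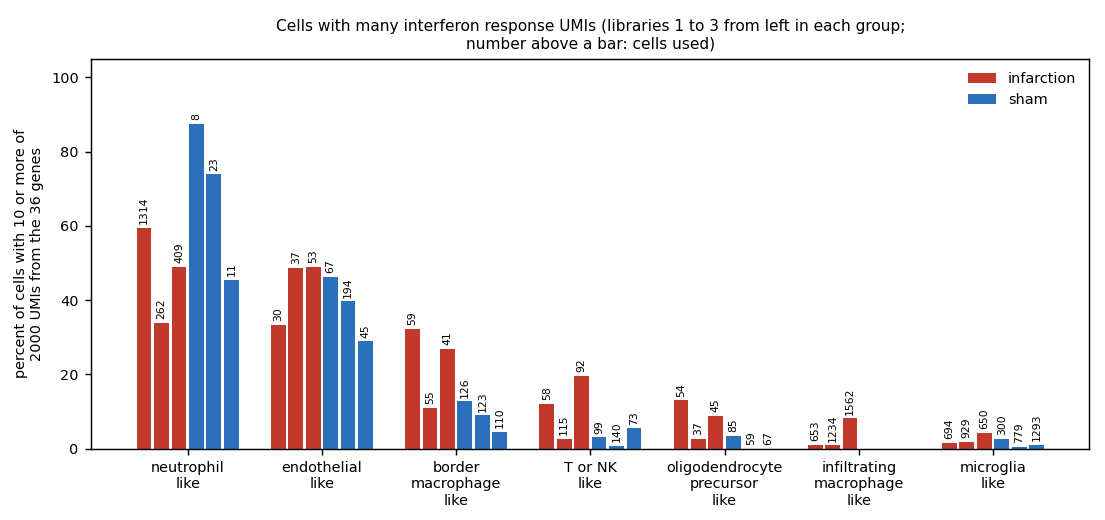
Percent of cells with at least 10 UMIs of the 36 genes after thinning to 2000 UMIs per cell, 1 bar per library, infarction in red left of sham in blue, with the number of cells used above each bar. Neutrophil-like and endothelial-like cells lie highest in both groups, and microglia-like cells lie below every endothelial-like bar.

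Transcripts of the interferons themselves were scarce, with 11 of 12 listed ligand genes in the files and none past the filter on low counts in any comparison of infarction with sham within a class or over all cells. Ifnb1, the gene of interferon beta, had 32, 5 and 15 UMIs in the infarction libraries, against 0, 1 and 4 in the sham libraries. Of its UMIs, 10, 2 and 7 were in border macrophage-like cells and 14, 2 and 4 in microglia-like cells of the infarction libraries. Infarction library 2 had the fewest Ifnb1 UMIs and, over all cells, the lowest level of 34 of the 36 members. Infarction library 1 had the most Ifnb1 UMIs, while 25 members were highest in infarction library 3 and 11 in library 1. A link between Ifnb1 and the members was not tested. Ifnk had 5 UMIs in infarction and 5 in sham. Ifng had 0, 0 and 13 UMIs in the infarction libraries, against 6, 2 and 6 in the sham libraries, all in T or NK-like cells. A link between Ifng and the members was not tested either. The interferon alpha genes Ifna2, Ifna4, Ifna5, Ifna11 and Ifna16l1, and Ifne, Ifnl1 and Ifnl3, had no UMIs in kept cells, and Ifna1 was not matched. A count of 0 over a library allows at most 3 UMIs, and these limits, like all depths here, cover counting error alone.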

How the data were processed

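Single cells of 3 infarction and 3 sham libraries were prepared with the 10x 3′ kit, per the labels' protocols. The deposited values are UMI counts per gene and barcode, which the authors had not normalised; per the submitters' processing notes, CASAVA 1.8, Cell Ranger 3.1.0 and Seurat 2.3.4 were used. The genome build is not given in the sources used here.

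Barcodes with at least 500 UMIs, 200 genes, at most 20% mitochondrial UMIs and a Scrublet doublet score of at most 0.25 were kept. They were clustered with scanpy 1.11.5 (2000 variable genes, 30 components, 15 neighbours, Leiden resolution 1) without the interferon genes. Clusters were named from 198 marker genes found in the files, of which 35 were left out by a rule set after the data were seen, and 6 clusters stayed unnamed. Counts were summed by class and library wherever each library had 20 or more cells of the class, and a CPM is the plain share of that sum, per 1000000 UMIs.

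Infarction was compared with sham with edgeR 4.0.16 (quasi-likelihood test, TMM scaling, filter on low counts; R 4.3.3), with Benjamini-Hochberg adjustment over all genes tested and a threshold of 0.05. Classes within infarction, and differences of effects from microglia-like cells, were fitted with library as a term. Each SE was back-calculated as the absolute log2 value divided by the square root of the quasi-likelihood F. DESeq2 1.42.0, other filters, doublet and mitochondrial limits, clusterings, a replicate block and leaving out each library were alternatives. Scripts were tested on simulated data. No label pairs infarction with sham libraries. Deviations of same-numbered libraries correlated at 0.02, −0.06 and 0.11 over all cells. In oligodendrocyte precursor-like cells the correlations were 0.10, 0.31 and 0.51, which do not establish pairs.

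The members and lists were chosen with earlier results of these data known. Values in every library are given, per class, for up to 5 members with the highest and up to 3 with the lowest fold change among those that passed with at least 20 CPM and no overlap, and for Isg15, Ifit3, Irf7 and Bst2, with up to 3 genes of smallest p from each other list of the pathway; further genes named were chosen after their values were seen.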

Additional observations from a re-analysis of the deposited data

Results flagged for a closer look

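These members responded to infarction differently in another class than in microglia-like cells, by a test of the difference itself (the log2 effect in the class minus that in microglia-like cells, ± SE). Over all genes the effect was higher for 6.3% in T or NK-like and 6.42% in border macrophage-like cells. It was higher for 11% in endothelial-like and 5.93% in oligodendrocyte precursor-like cells. Outside T or NK-like cells the members' counts lay near or below these shares. In T or NK-like cells the difference was 1.94 ± 0.35 (edgeR adjusted p = 0.000238) for Rtp4, 1.70 ± 0.41 (edgeR adjusted p = 0.00675) for Mx2 and 1.04 ± 0.27 (edgeR adjusted p = 0.00789) for Ifi44. It was 0.996 ± 0.30 (edgeR adjusted p = 0.0227) for Ifi47, 0.73 ± 0.24 (edgeR adjusted p = 0.0359) for Parp14 and 0.72 ± 0.24 (edgeR adjusted p = 0.0377) for Oasl2. In border macrophage-like cells it was 1.33 ± 0.29 (edgeR adjusted p = 0.00203) for Rtp4 and 0.95 ± 0.27 (edgeR adjusted p = 0.0143) for Ifi35. In endothelial-like cells it was 1.02 ± 0.32 (edgeR adjusted p = 0.0262) for Stat2, 0.92 ± 0.31 (edgeR adjusted p = 0.0364) for Dtx3l and 0.82 ± 0.26 (edgeR adjusted p = 0.029) for Parp9, and −2.504 ± 0.65 (edgeR adjusted p = 0.0147) for Oasl, whose effect was thus lower there. In oligodendrocyte precursor-like cells it was 4.93 ± 1.10 (edgeR adjusted p = 0.0241) for Mx1 and 2.75 ± 0.66 (edgeR adjusted p = 0.0329) for Isg15. Scaled by S100a8 and S100a9, neutrophil RNA would carry over 104.9, 0.215 and 49.0 CPM of Isg15 in infarction libraries of these cells. Measured there were 98.1, 33.1 and 47.5 CPM, and the part of carry-over was not tested. Mx1 had 1 UMI over the 3 sham libraries of that class and did not pass the filter on low counts there, so the size of its difference depends on the fit and is no bound.

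Mx2 and both Rtp4 differences passed in all 6 fits that each left out 1 library. In the same 6 fits Ifi44 passed in 5, Ifi35 and Oasl in 4, Ifi47 and Oasl2 in 3, Parp14, Stat2 and Mx1 in 2, and Dtx3l, Parp9 and Isg15 in 1.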

How the results depend on the processing

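Scaled to total UMIs (chosen after seeing the data, as were the settings on cell classes and clusters), 15 members were higher over all cells, in place of 28, and 0 in T or NK-like cells, in place of 2; 1 was lower in endothelial-like cells, in place of 0. Without classes nearly absent from one group 6 were higher and 1 lower over all cells, and the log2 fold changes of Ifit2 (−0.088), Ifit1 (−0.66), Ifih1 (−0.052), Stat2 (−0.055), Ifi47 (−0.25), Irf1 (−0.23), Xaf1 (−0.086), Trim25 (−0.058), Bst2 (−0.72) and Dtx3l (−0.26) turned negative. Without the Ccl4-led cluster 1 member was higher and 5 lower in microglia-like cells, in place of 4 and 8. With no filter on low counts 591 genes passed in T or NK-like cells and 1312 in endothelial-like cells. The members higher were then 4 in T or NK-like, 7 in border macrophage-like, 1 in endothelial-like, 2 in microglia-like and 4 in oligodendrocyte precursor-like cells, and lower 1 in T or NK-like and 3 in endothelial-like cells. DESeq2 called 226 genes and 1 member higher in T or NK-like cells, 798 genes in border macrophage-like cells and 4 members higher in oligodendrocyte precursor-like cells. The replicate block has no support in the labels. With it the members higher were 6 in T or NK-like, 6 in border macrophage-like, 1 in endothelial-like and 3 in oligodendrocyte precursor-like cells. Lower with this block were 1 member in T or NK-like and 1 in endothelial-like cells. A doublet score of at most 0.15 gave 1 higher member in microglia-like, 1 in endothelial-like and 0 in oligodendrocyte precursor-like cells. At most 10% mitochondrial UMIs gave 1 in T or NK-like cells, and clustering with the interferon genes gave 2 in microglia-like cells. In each of these settings the cause was not tested.

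Leaving out 1 library, infarction over sham gave 216 to 347 genes in T or NK-like, 448 to 650 in endothelial-like and 1090 to 2173 in oligodendrocyte precursor-like cells. Members higher ranged over 0 to 4 in T or NK-like, 2 to 9 in border macrophage-like, 0 to 1 in endothelial-like, 1 to 5 in microglia-like and 1 to 2 in oligodendrocyte precursor-like cells, and members lower over 0 to 1 in T or NK-like, 1 to 3 in border macrophage-like and 0 to 1 in endothelial-like cells. Differences of effects from microglia-like cells gave 899 to 1384 genes in T or NK-like and 276 to 604 in oligodendrocyte precursor-like cells. Members with a higher effect numbered 3 to 8 in T or NK-like, 1 to 6 in border macrophage-like, 0 to 3 in endothelial-like and 0 to 2 in oligodendrocyte precursor-like cells, and those with a lower one 0 to 1 in endothelial-like cells. Within infarction, against microglia-like cells, 2781 to 3581 genes passed in oligodendrocyte precursor-like cells, with 16 to 28 members higher in border macrophage-like and 0 to 2 in oligodendrocyte precursor-like cells, and 1 to 3 lower in T or NK-like, 3 to 13 in infiltrating macrophage-like and 7 to 19 in oligodendrocyte precursor-like cells.

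Of the values of single members under the other settings, 470 kept direction and side of the threshold, 59 no longer passed, 17 newly passed and 10 reversed; with 1 library left out the numbers were 747, 146, 7 and 0. The limit of 10% mitochondrial UMIs left too few endothelial-like cells, and resolution 0.5 too few oligodendrocyte precursor-like cells, so these were not run. Classes with few cells limit depth: 21 and 11 members passed the filter in T or NK-like and oligodendrocyte precursor-like cells.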
